A study of Mus musculus with 12 samples.

Results

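The genes described here are 8 cell adhesion genes: Cdh1, Cdh3, Cdh13, Cadm1, Ctnna1, Ctnnb1, Ctnnd1 and Vcl. They were taken by name from the 37931 genes present in both count tables of a study of hair follicle stem cells (HFSCs) of mouse back skin. The working name of the set was classical cadherins and catenins, and 5 of its members carry that name: Cdh1 (E-cadherin) and Cdh3 (P-cadherin) are classical cadherins, and Ctnna1, Ctnnb1 and Ctnnd1 encode α-catenin, β-catenin and p120-catenin. Cdh13 (T-cadherin) is an atypical cadherin held in the membrane by a lipid anchor, without the cytoplasmic tail that binds catenins. Cadm1 is an adhesion molecule of the immunoglobulin family, and Vcl encodes vinculin, an actin-binding protein.

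Polyadenylated RNA was sequenced from cells sorted as CD34+, CD49f+, H2BGFP+ and Sca-1-, in anagen (the growth phase of the hair cycle) and in early telogen (the resting phase). All mice carried K14-H2BGFP, a fluorescent histone under the keratin 14 promoter of basal keratinocytes, together with the floxed alleles Foxc1 fl/fl. Knockout (KO) mice carried K14Cre in addition, so that Cre was driven in all cells that use this promoter and not in HFSCs alone, and the wild-type (WT) controls were floxed mice without Cre. Anagen held 2 KO libraries, of postnatal days 29 and 31, and 3 WT libraries, titled days 29, 30 and 31. In early telogen, at day 47, there were KO replicates 1, 2, 3 and 5 (4 libraries) and WT replicates 1, 3 and 4 (3 libraries). In 2 libraries the labels conflicted: anagen WT replicate 3 was titled day 31 with an age label of 43 days, and early telogen KO replicate 5 was titled day 43 with an age label of 47 days. Both anagen KO libraries and anagen WT replicate 1 were female and the other 2 anagen WT libraries were male, while early telogen had both sexes in each genotype. Replicates of a group that differ in sex or day cannot share an animal, and for the others no label states whether they do. The p-values below therefore measure the spread between these samples, which for such replicates may be technical.

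Epithelial cells hold together at adherens junctions. There the outer part of a classical cadherin binds a cadherin of the neighbouring cell, its tail binds β-catenin and p120-catenin, and α-catenin, with vinculin, links the complex to actin. β-Catenin also acts in the nucleus as the transcriptional partner of Wnt signalling, which drives hair growth. In the follicle, E-cadherin is found broadly in the epithelium, while P-cadherin is known from the hair germ and the hair matrix.

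Foxc1, the deleted gene, was at 0.206 and 0.276 CPM (counts scaled by the library's total over genes) in the anagen KO libraries against 34.6 to 116 CPM in WT, and at 0.910 to 3.11 CPM in early telogen KO against 43.8 to 61.2 CPM in WT. All 10 HFSC markers, among them Krt15, Sox9 and Lhx2, had counts in each group, and their summed level was 21842 to 36126 CPM over the 12 libraries. By group means, most of that sum was Krt5 and Krt14. In anagen Krt5 was at 11943 ± 448 CPM in KO and 11290 ± 1839 in WT, and Krt14 at 7604 ± 1208 and 6874 ± 719. Some of the 10 markers had lower means in KO without being called by edgeR: in anagen Krt15 was at 1723 ± 663 CPM (SD, n = 2) in KO and 7003 ± 2325 (n = 3) in WT (-2.12, adjusted p = 0.156), Nfatc1 at 79.7 ± 27.8 and 194 ± 37.6 (-1.37, adjusted p = 0.195) and Cd34, a gene of the sort gate, at 254 ± 32.9 and 552 ± 203 (-1.22, adjusted p = 0.314). Others went the other way: 4 of the 10 had positive values in anagen (median -0.19), with Sox9 at 1010 ± 162 CPM in KO and 807 ± 199 in WT. In early telogen 1 of the 10 had a positive value (median -0.23). Cd34 was called lower in KO at that stage (-1.20, adjusted p = 0.0212 in edgeR's test), and the part of these markers in the results below was not tested. Totals over genes were 29025553 to 54482469 counts in anagen and 2662083 to 11821916 in early telogen, where the smallest was KO replicate 5. The 8 genes had between 204 and 53859 counts in every library. These libraries are bulk samples, in which fewer cells of a type and less RNA per cell cannot be told apart. Stage, count table and depth changed together, so they cannot be told apart in any comparison of stages. Reads placed at more than 1 position were 31.1% and 32.8% of reads in the anagen KO libraries and 20.1% to 25.8% in WT, and their part in the anagen results was not tested.

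Cdh1 and Cdh3 are neighbours on chromosome 8 (build GRCm38), on the plus strand, with Cdh3 from 106510891 to 106557297 and Cdh1 from 106603351 to 106670246, 46053 bases downstream. Cdh13 lies on the same chromosome from 118283733 to 119324921. Cadm1 (47530173 to 47857637) and Ctnnb1 (120929216 to 120960507) are on chromosome 9, Ctnnd1 is on chromosome 2 (84600071 to 84650765, minus strand), Ctnna1 on chromosome 18 (35118859 to 35254779) and Vcl on chromosome 14 (20929398 to 21033676). Exons of Ctnna1, Ctnnb1 and Vcl overlap the span of a gene on the opposite strand (Lrrtm2, Ulk4 and Ap3m1), and exons of Ctnnd1 overlap that of Gm28635 on its own strand. Exons of Ctnnb1 also overlap the spans of 4930593C16Rik on the opposite strand and Mir7090 on its own. Whether exons of the 4 genes meet exons of these partners was not examined. Whether counting used strand is not given in the sources used here, so the counts of these 4 genes may include reads of a partner or lack reads that were ambiguous. For Gm28635 and Mir7090, on the same strand as their partners, this may occur whether or not counting used strand.

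Per kilobase of exon, Cdh1 and Ctnnb1 had the highest levels of the 8 genes in all 4 groups, and Cdh13 and Cadm1 the lowest. The length was that of all annotated exons merged, from 4.38 kb for Cdh3 to 10.4 kb for Cadm1 and 11.2 kb for Cdh13, and the order depends on it. In CPM without this division, early telogen WT Cdh13 (206) and Cadm1 (228) lay above Cdh3 (157). In early telogen WT the order of levels in CPM per kilobase was Cdh1 (270 ± 2.94, SD, n = 3), Ctnnb1 (157 ± 4.06), Ctnna1 (157 ± 15.8), Ctnnd1 (65.1 ± 10.9), Vcl (43.4 ± 3.70), Cdh3 (35.7 ± 1.47), Cadm1 (21.8 ± 2.23) and Cdh13 (18.3 ± 0.722). Of the neighbours in this order, the libraries of Ctnnb1 and Ctnna1 overlapped and all others were separate. In anagen WT the order was Cdh1 (179 ± 32.5), Ctnnb1 (159 ± 11.5), Ctnna1 (82.2 ± 14.5), Cdh3 (54.3 ± 17.1), Ctnnd1 (49.4 ± 6.44), Vcl (27.4 ± 9.25), Cadm1 (13.1 ± 4.01) and Cdh13 (3.83 ± 1.74). There Cdh1 overlapped with Ctnnb1, and Cdh3 with Ctnnd1. Cdh3 therefore stood above Vcl in anagen WT and below it in early telogen WT. In anagen KO, Ctnnb1 (171 ± 13.7, n = 2) and Cdh1 (149 ± 68.9) overlapped, as did Ctnna1 (73.7 ± 15.8) and Cdh3 (73.5 ± 15.1), and Ctnnd1 (49.6 ± 2.02), Vcl (25.1 ± 9.13), Cadm1 (3.01 ± 0.722) and Cdh13 (0.894 ± 0.245) followed without overlap. In early telogen KO, Cdh13 (17.9 ± 1.60, n = 4) stood above Cadm1 (14.6 ± 1.38), the reverse of the order in WT, below Cdh1 (255 ± 60.9), Ctnnb1 (173 ± 11.3), Ctnna1 (140 ± 19.9), Ctnnd1 (58.1 ± 10.8), Vcl (41.2 ± 11.7) and Cdh3 (27.1 ± 6.42). Overlapping neighbours in that group were Ctnnb1 and Ctnna1, Ctnnd1 and Vcl, and Cdh3 and Cdh13.

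**Figure D1:**
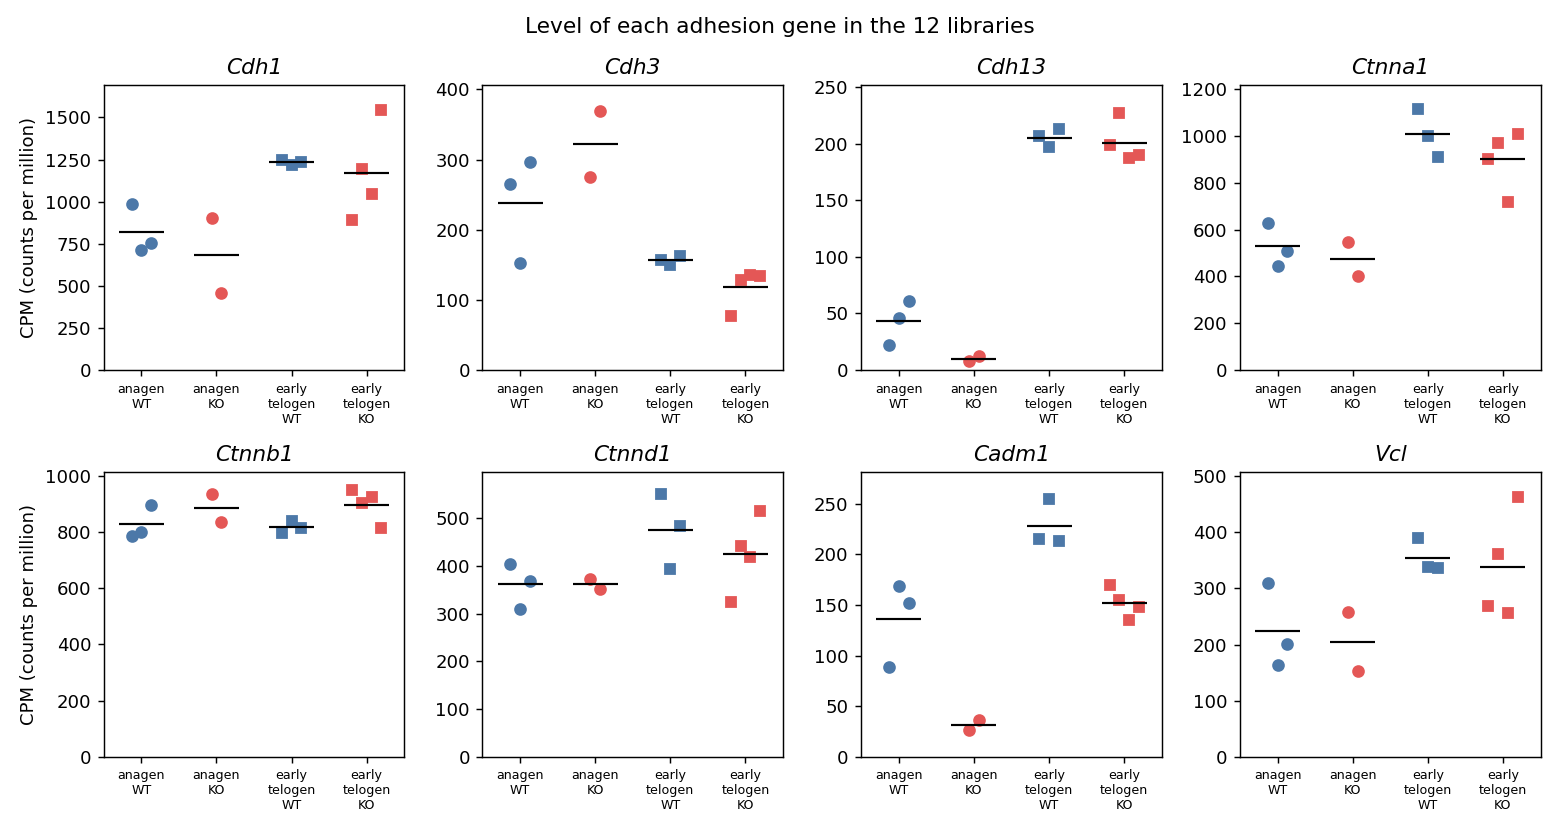
Level of each of the 8 genes, in CPM on a linear axis from 0, in every library of the 4 groups (circles anagen, squares early telogen, blue WT, red KO), with black lines at the group means. Cdh13 and Cadm1 are lowest in both anagen KO libraries, Cdh3 is lower in all 4 early telogen KO libraries than in the 3 WT libraries of that stage, and Ctnnb1 lies between 788 and 950 CPM throughout.

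Among the surface proteins, Cdh1 was at 989, 715 and 751 CPM in anagen WT (replicates 1 to 3), 904 and 458 CPM in anagen KO, 1247, 1220 and 1233 CPM in early telogen WT (replicates 1, 3 and 4), and 1194, 1047, 1543 and 891 CPM in early telogen KO (replicates 1, 2, 3 and 5). The WT libraries of early telogen were nearly level and lay above every anagen library, while the KO libraries spread widely at both stages. Cdh3 was at 265, 153 and 296 CPM in anagen WT, 275 and 369 CPM in anagen KO, 157, 150 and 163 CPM in early telogen WT, and 128, 135, 134 and 76.6 CPM in early telogen KO, in the same order of replicates. Anagen KO replicate 2 had the highest Cdh3 and the lowest Cdh1 of the 12 libraries, and early telogen KO replicate 5, the shallowest library, had the lowest Cdh3 with 204 counts (66.5 to 87.9 CPM, 95% exact Poisson interval, which covers counting error only).

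Cdh13 was at 22.0, 46.3 and 60.6 CPM in anagen WT, 8.10 and 11.99 CPM in anagen KO, 207, 197 and 213 CPM in early telogen WT, and 227, 188, 190 and 200 CPM (199.5 before rounding) in early telogen KO. The stages did not overlap, and in early telogen the genotypes did. Cadm1 was at 89.1, 169 and 152 CPM in anagen WT, 26.1 and 36.8 CPM in anagen KO, 215, 254 and 213 CPM in early telogen WT, and 155, 135.5, 148 and 170 CPM in early telogen KO. For Cadm1 the KO libraries lay below the WT libraries at each stage, and early telogen KO overlapped with anagen WT.

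Among the catenins, Ctnna1 was at 629, 446 and 511 CPM in anagen WT, 545 and 402 CPM in anagen KO, 1114, 999 and 911 CPM in early telogen WT, and 970, 719, 1008 and 904 CPM in early telogen KO. Every early telogen library lay above every anagen library. Ctnnb1 was at 788, 799 and 896 CPM in anagen WT, 936 and 835 CPM in anagen KO, 798, 840 and 813 CPM in early telogen WT, and 902, 924, 815 and 950 CPM in early telogen KO, so that all 4 groups overlapped. Ctnnd1 ranged from 311 to 404 CPM in anagen WT, from 352 to 373 CPM in anagen KO, from 393 to 552 CPM in early telogen WT and from 325 to 516 CPM in early telogen KO. Vcl ranged from 164 to 309 CPM in anagen WT, from 153 to 258 CPM in anagen KO, from 337 to 390 CPM in early telogen WT and from 257 to 464 CPM in early telogen KO. For Ctnnd1 all groups of a comparison overlapped, and for Vcl only the WT groups of the 2 stages were apart.

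In WT HFSCs, 5 of the 8 genes rose from anagen to early telogen: Cdh13, Ctnna1, Cdh1, Cadm1 and Vcl. Here and below a gene is called, and said to rise or fall, at an adjusted p under 0.05 in edgeR's quasi-likelihood test, adjusted over all genes tested, and fold changes are log2 estimates ± SE. Of all 12718 genes tested between the WT stages, 29.5% were called, and 13.6% of those tested were called higher. T-cadherin changed most among the 8: mean Cdh13 was 206 ± 8.11 CPM (SD, n = 3) in early telogen and 43.0 ± 19.5 CPM (n = 3) in anagen, a log2 fold change of 2.35 ± 0.34 (adjusted p = 0.00311). The α-catenin gene Ctnna1 rose by 1.02 ± 0.19 (adjusted p = 0.00460), while the β-catenin gene Ctnnb1 had a value of 0.07 ± 0.17, with a 95% interval from -0.30 to 0.45 (adjusted p = 0.772).

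The other surface genes moved unequally between the WT stages. Cdh1 rose by 0.68 ± 0.19 (adjusted p = 0.0225) and Cadm1 by 0.83 ± 0.25 (adjusted p = 0.0314). Cdh3 had a value of -0.51 ± 0.22 (95% interval -1.01 to -0.01) and did not pass (adjusted p = 0.112). Vcl rose by 0.75 ± 0.23 (adjusted p = 0.0323), and Ctnnd1 had a value of 0.48 ± 0.17, which did not pass (adjusted p = 0.0617). The CPM of 5 genes, the same ones that were called, did not overlap between the WT stages, all higher in early telogen, where 47.9% of all genes did not overlap and 18% were higher without overlap. The median over the 8 genes was 0.72, against -0.10 over all genes tested. When 1 of the 6 libraries at a time was left out, Cdh13 and Ctnna1 kept their calls in 6 of 6 fits. The calls for Cdh1, Cadm1 and Vcl held in 3, 2 and 1 of these 6, with highest adjusted p of 0.0815, 0.109 and 0.0885, and Cdh3 was called without anagen WT replicate 2 (-0.74, adjusted p = 0.0127). DESeq2 called 6 members, Ctnnd1 among them (adjusted p = 0.0130), beside 34% of all genes, and with libraries scaled by their totals alone 3 were called (Cdh13, Ctnna1 and Cdh1), beside 29.4%.

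In KO HFSCs, Cdh13, Cadm1 and Ctnna1 rose from anagen to early telogen and Cdh3 fell, so that 4 of the 8 genes were called. Of all 12771 genes tested 22.2% were called, with 10.2% of those tested higher and 12% lower. Mean Cdh13 was 201 ± 17.9 CPM (SD, n = 4) in early telogen and 10.1 ± 2.75 CPM (n = 2) in anagen, a ratio of means of 20.02 and a log2 fold change of 4.33 ± 0.31 (adjusted p = 1.69e-05). Cadm1 rose by 2.28 ± 0.28 (adjusted p = 0.000379), from 31.4 ± 7.53 to 152 ± 14.4 CPM. Cdh3 fell by 1.44 ± 0.27 (adjusted p = 0.00422), from 322 ± 66.1 to 119 ± 28.1 CPM. Of the 7 hair germ markers named below, 5 were tested between the KO stages, with 4 positive and 3 called higher (median 1.34). Their sum was 855 and 499.9 CPM in anagen KO and 1952 to 3765 CPM in early telogen KO, most of it Fst. Their part in the fall of Cdh3 was not tested. Of the 10 HFSC markers, 7 had positive values between the KO stages (median 0.27), with 2 called higher and 1 lower. Mean Krt15 was 1723 ± 663 CPM in anagen KO and 8643 ± 2527 in early telogen KO, and Nfatc1 was at 79.7 ± 27.8 and 355 ± 34.1. Tcf7l1 went the other way, at 118 ± 31.7 and 58.8 ± 12.1 CPM. The part of the HFSC markers in the values of Cdh13 and Cadm1 was not tested.

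The α-catenin gene Ctnna1 rose in KO by 0.94 ± 0.30 (adjusted p = 0.0450), and the KO value minus that of WT was -0.09 in the fit of all 12 libraries, with a 95% interval from -0.81 to 0.63. That call was lost in 5 of the 6 fits that left out a library, with adjusted p up to 0.326 without anagen KO replicate 2. The calls for Cdh13, Cadm1 and Cdh3 held in 6 of 6. The genes that did not pass in KO were Cdh1 (0.80 ± 0.37, 95% interval -0.01 to 1.60, adjusted p = 0.139), Vcl (0.74 ± 0.36, -0.05 to 1.54, adjusted p = 0.160), Ctnnd1 (0.24 ± 0.27, -0.36 to 0.84, adjusted p = 0.555) and Ctnnb1 (0.02 ± 0.24, -0.51 to 0.54, adjusted p = 0.965). CPM did not overlap between the KO stages for 4 of the 8 genes, 3 higher and 1 lower in early telogen, beside 44.9% of all genes (21.5% higher and 23.5% lower). The median over the 8 genes was 0.77, against -0.03 over all genes tested.

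**Figure D2:**
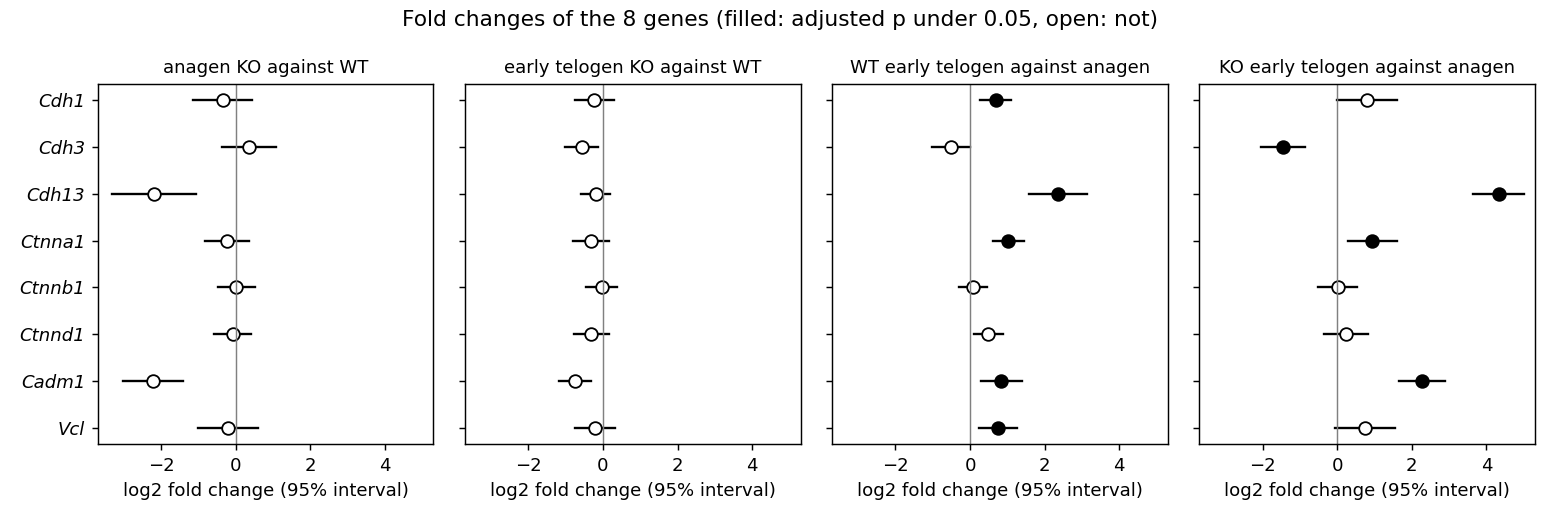
Log2 fold changes of the 8 genes in 4 comparisons, with approximate 95% intervals derived from edgeR's F statistic. Filled points have an adjusted p under 0.05 and open points do not: no gene is filled in the KO against WT panels, while 5 are filled for the WT stages and 4 for the KO stages.

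In anagen, Cdh13 and Cadm1 had the largest differences between KO and WT among the 8 genes. Mean Cdh13 was 10.1 ± 2.75 CPM (SD, n = 2) in KO and 43.0 ± 19.5 CPM (n = 3) in WT, a log2 fold change of -2.19 ± 0.47 (95% interval -3.32 to -1.07). Mean Cadm1 was 31.4 ± 7.53 CPM in KO and 137 ± 41.9 CPM (n = 3) in WT, a value of -2.21 ± 0.34 (-3.02 to -1.41). Neither passed in edgeR's test over 14409 genes (adjusted p = 0.209 and 0.107), in which 0 genes, or 0%, were called. The deleted gene Foxc1 was itself tested and not called there, with a value of -8.19. The lack of calls in this test therefore does not show a lack of change. At an unadjusted p under 0.05 stood 2 of the 8 genes (Cdh13 and Cadm1) and 1456 (10.1%) of all genes. The same 2 of 8 did not overlap between the genotypes, both lower in KO, beside 29.7% of all genes without overlap and 11.2% lower without overlap.

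Other fits of the anagen libraries did call these genes. DESeq2 called Cdh13 (adjusted p = 0.000187) and Cadm1 (adjusted p = 2.56e-07) as lower in KO, where it called 3.65% of all genes, and edgeR on all 12 libraries called both (adjusted p = 0.00613 and 0.00207), with 1.17% of all genes called. So did edgeR with title days as blocks (adjusted p = 0.0344 and 0.00597, 1.76% called), while without the filter on low counts it called Cadm1 alone of the 8 (adjusted p = 6.01e-06, 1.38% called). Anagen WT replicate 1, the female WT library, had the lowest Cdh13 and Cadm1 of the 3 WT libraries. Without it edgeR called both (-2.51, adjusted p = 0.0242, and -2.45, adjusted p = 0.0218), with 0.671% of all genes called. With sex as a covariate, which rests the comparison within females on this 1 library, the values were -1.21 for Cdh13 (adjusted p = 0.974) and -1.58 for Cadm1 (adjusted p = 0.489).

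The 6 other genes did not pass between the anagen genotypes. Values in KO against WT were -0.35 ± 0.33 for Cdh1 (95% interval -1.14 to 0.43), 0.35 ± 0.31 for Cdh3 (-0.38 to 1.08), -0.25 ± 0.25 for Ctnna1 (-0.84 to 0.35), 0.01 ± 0.21 for Ctnnb1 (-0.49 to 0.50), -0.08 ± 0.21 for Ctnnd1 (-0.58 to 0.41) and -0.21 ± 0.34 for Vcl (-1.02 to 0.60). Adjusted p-values of these 6 genes ran from 0.767 (Cdh3) to 0.995 (Ctnnb1). The intervals leave room for changes of up to about 1 log2 unit for Cdh1, Cdh3 and Vcl. The median over the 8 genes was -0.23, against 0.02 over all genes tested. Markers of the hair germ, where P-cadherin is known to be expressed, were summed over 7 genes (Lef1, Gli1, Shh, Wnt10b, Edar, Fst and Pthlh) at 855 and 500 (499.9 before rounding) CPM in KO and 1069 to 1593 CPM in WT, and their part in the Cdh3 values was not tested. Most of that sum was Fst (439 ± 198 CPM in KO and 1046 ± 299 in WT), while Pthlh (197 ± 47.6 and 163 ± 29.2) and Shh (1.23 ± 0.606 and 0.620 ± 0.554) had higher means in KO, Gli1 was at 37.3 ± 5.66 and 37.9 ± 13.6, and none of the 7 passed.

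In early telogen, all 8 genes had negative values in KO against WT and 0 passed in edgeR's test, beside 115 (0.956%) of 12030 genes called. The median over the 8 genes was -0.27, against 0.03 over all genes tested. Cadm1 had the largest value, -0.75 ± 0.20 (95% interval -1.17 to -0.32, adjusted p = 0.108), with 152 ± 14.4 CPM (SD, n = 4) in KO and 228 ± 23.2 CPM (n = 3) in WT. Cdh3 followed with -0.57 ± 0.20 (-1.01 to -0.13, adjusted p = 0.259), with 119 ± 28.1 CPM in KO and 157 ± 6.44 CPM in WT. These 2 of 8 genes had an unadjusted p under 0.05 (0.00223 and 0.0154), as did 12% of all genes, and did not overlap between the genotypes, where 13.1% of all genes did not overlap and 3.37% were lower without overlap.

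DESeq2 called Cadm1 as lower in early telogen KO (-0.76, adjusted p = 0.0186), as 1 of 8 members, with 3.52% of all genes called, and edgeR without the filter on low counts did so too (adjusted p = 0.0399, 1.85% called). Without KO replicate 5 the value of Cdh3 was -0.43 (adjusted p = 0.451). Markers of other cell types stood apart in 2 libraries of this stage. WT replicate 3 had the lowest summed level of 6 fibroblast markers (253 CPM, against 463 to 4975 CPM in the other 6 libraries), and the highest Cadm1. KO replicate 2 had the highest (4975 CPM), together with the highest differentiated epidermis markers (5125 CPM over 7 genes), and the lowest Cadm1. With both of these libraries left out, an alternative chosen after seeing the data, Cadm1 was at -0.50 (adjusted p = 0.429) and 0 of the 8 genes were called, beside 0.39% of all genes. Since they held the highest WT and the lowest KO value of Cadm1, leaving them out narrows its difference whatever their markers. The part of the fibroblast and epidermis markers in the Cadm1 value was not tested. With the replicate number as a block 0 of 8 were called, beside 0.0914%, with Cadm1 at -0.73 (adjusted p = 0.241). Summed over the 5 melanocyte markers in both tables, KO libraries had 13.5 to 32.0 CPM and WT libraries 1.79 to 4.36 CPM, with Mlana at 0 in WT, and their part in the values of the 8 genes was not tested.

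The remaining values in early telogen KO against WT were -0.23 ± 0.24 for Cdh1 (95% interval -0.75 to 0.29), -0.20 ± 0.18 for Cdh13 (-0.58 to 0.19), -0.31 ± 0.23 for Ctnna1 (-0.80 to 0.17), -0.32 ± 0.22 for Ctnnd1 (-0.79 to 0.15), -0.21 ± 0.25 for Vcl (-0.76 to 0.33) and -0.04 ± 0.19 for Ctnnb1 (-0.45 to 0.38). Their adjusted p-values ran from 0.616 to 0.967. With libraries scaled by their totals alone, the median of all genes moved to 0.21, and 7 of the 8 values were negative, with Ctnnb1 at 0.14. For Cdh13, mean levels were 201 ± 17.9 CPM in KO and 206 ± 8.11 CPM in WT in early telogen, against 10.1 and 43.0 CPM in anagen.

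A contrast of the 4 groups, fitted on all 12 libraries, asked whether the KO effect differed by stage, which is also the difference between the stage effects in KO and WT. The contrast called 0 of the 8 genes in edgeR's test and 19 (0.144%) of 13193 genes. Of the 8, Cdh13 had the largest value, 1.97 ± 0.43 (95% interval 1.04 to 2.90, adjusted p = 0.112), followed by Cadm1 with 1.44 ± 0.37 (0.64 to 2.24, adjusted p = 0.243) and Cdh3 with -0.94 ± 0.37 (-1.73 to -0.15, adjusted p = 0.610). These were the 3 members with an unadjusted p under 0.05, as 6.37% of all genes had. DESeq2 called 2 members, Cdh13 (adjusted p = 0.00288) and Cadm1 (adjusted p = 0.0297), with 1.17% of all genes called. Without the filter on low counts, edgeR called Cdh13 and Cadm1 (adjusted p = 2.97e-06 and 0.00231), with 1.83% of all genes called. edgeR also called these 2 members without anagen WT replicate 1 (adjusted p = 0.00441 and 0.0435), with 0.418% of all genes called. Values for the other 5 genes lay between -0.25 (Ctnnd1) and 0.10 (Cdh1), with adjusted p from 0.969 to 1.

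Ratios of 2 genes within a library are free of scaling between libraries. Cdh3 had 26.8, 21.4 and 39.4 counts per 100 counts of Cdh1 in anagen WT, 30.5 and 80.6 in anagen KO, 12.6, 12.3 and 13.2 in early telogen WT (replicates 1, 3 and 4), and 10.8, 12.9, 8.71 and 8.60 in early telogen KO (replicates 1, 2, 3 and 5). All 5 anagen libraries lay above all 7 early telogen libraries, and the genotypes overlapped at each stage. Ctnna1 had 55.8 to 79.9 counts per 100 counts of Ctnnb1 in anagen WT, 48.1 and 58.2 in anagen KO, 112 to 140 (139.5 before rounding) in early telogen WT and 77.9 to 124 in early telogen KO. For this pair the WT stages were apart and so were the KO stages, while the lowest early telogen KO library (replicate 2, 77.9) lay below the highest anagen WT library (replicate 1, 79.9). Vcl relative to Ctnna1 stayed in a narrower band, with 36.7 to 49.2 counts per 100 in anagen WT, 38.0 and 47.4 in anagen KO, 33.8 to 37.0 in early telogen WT and 29.8 to 46.0 in early telogen KO.

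**Figure D3:**
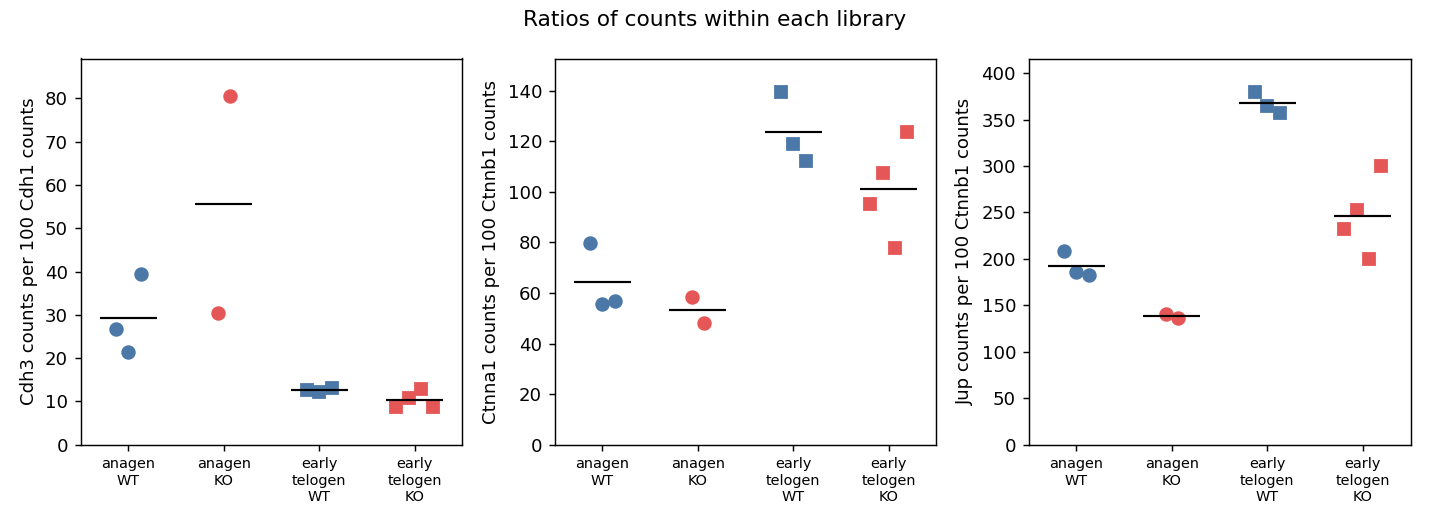
Counts of 1 gene per 100 counts of another in each library (circles anagen, squares early telogen, blue WT, red KO), on linear axes from 0, with black lines at group means. Cdh3 per Cdh1 is lower in all 7 early telogen libraries than in all 5 anagen libraries, and Jup per Ctnnb1 is lower in KO than in WT within each stage.

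Plakoglobin (Jup), the close relative of β-catenin that serves in both adherens junctions and desmosomes, was followed beside Ctnnb1. It was at 1645, 1484 and 1634 CPM in anagen WT, 1318 and 1142 CPM in anagen KO, 3033, 3066 and 2903 CPM in early telogen WT, and 2282, 1844, 2441 and 2206 CPM in early telogen KO. Jup rose between the WT stages (1.01 ± 0.18, adjusted p = 0.00393). Between the KO stages it had a value of 0.85 ± 0.29, which did not pass (adjusted p = 0.0556). The KO libraries lay below the WT libraries at each stage, but the values of -0.46 ± 0.22 in anagen (adjusted p = 0.547) and -0.61 ± 0.22 in early telogen (adjusted p = 0.276) did not pass. Lower in KO without overlap were 11.2% of all genes in anagen and 3.37% in early telogen. No such share was computed for the ratios that follow. Per 100 counts of Ctnnb1 there were 182 to 209 counts of Jup in anagen WT, 141 and 137 in anagen KO, 357 to 380 in early telogen WT and 200 (199.7 before rounding) to 300 (299.8) in early telogen KO.

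The rest of the adherens junction was read from a list of 50 other genes (further cadherins, catenins, nectins, Cadm family members, actin linkers and enzymes that act on cadherins). Between the WT stages, 42 of the 50 were tested, and 8 rose and 3 fell, beside 29.5% of all genes called, with a median of 0.16 against -0.10 over all genes. Those that rose were Lmo7 (2.40), a partner of the nectin adaptor afadin, Iqgap1 (1.14), Ctnnal1 (1.10), Jup, the tight junction scaffold Tjp1 (0.99), the receptor phosphatases Ptprk (0.93) and Ptprf (0.55), and the actin crosslinker Actn4 (0.61). Those that fell were Sorbs3 (-0.87), which encodes the vinculin-binding vinexin, the nectin gene Pvrl4 (-0.78) and Adam10 (-0.56), whose protease cleaves E-cadherin. The calls for Lmo7, Tjp1, Iqgap1, Ptprk, Ctnnal1, Jup and Sorbs3 held with each library left out, and the calls for Pvrl4, Adam10, Ptprf and Actn4 were lost in some of these fits.

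Between the KO stages, 43 of the 50 were tested, and 9 rose and 2 fell, beside 22.2% of all genes called, with a median of 0.40 against -0.03 over all genes. Lmo7 (3.65), Iqgap1 (1.17), Ctnnal1 (1.23), Tjp1 (1.15) and Ptprk (1.08) rose here as in WT. Cdh11 (2.33), a cadherin of mesenchymal cells, Ctnnd2 (2.15), a relative of p120-catenin known from neurons, Cadm4 (1.92) and Limd1 (0.81) also rose. Pvrl4 (-1.80) and the phosphatase gene Ptpn1 (-0.75) fell. Of the fibroblast markers tested between the KO stages, 6 of 6 had positive values (median 1.54, 1 called, Dcn), with summed levels of 364 and 690 (689.6 before rounding) CPM in anagen and 463 to 4975 CPM in early telogen. Of the endothelial markers, 4 of 4 had positive values (median 1.67, 1 called, Pecam1), with 6.43 and 10.2 CPM in anagen and 15.5 to 29.4 CPM in early telogen, and the part of either list in these changes was not tested. With each library left out in turn, the calls for Lmo7 and Ctnnd2 held, and those for the other 9 genes were lost at least once.

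**Figure D4:**
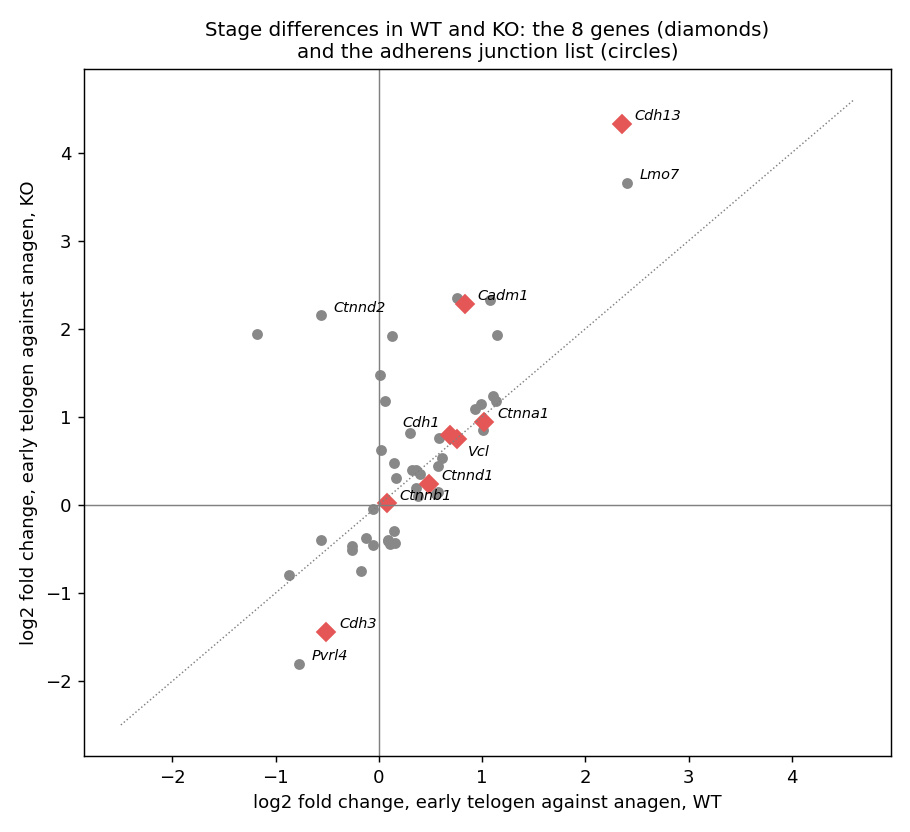
Log2 fold change from anagen to early telogen in WT (horizontal axis) and in KO (vertical axis) for the 8 genes (red diamonds) and 42 genes of the adherens junction list (grey circles), with a dotted line of equal change. The 2 comparisons share no library. Cdh13 (2.35 and 4.33) and Cadm1 (0.83 and 2.28) lie above the line, Cdh3 (-0.51 and -1.44) below it, and Ctnna1 and Cdh1 close to it.

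Between genotypes, the list's calls stood beside 0% of all genes called by edgeR in anagen and 0.956% in early telogen. For the difference between the stages the share of all genes was 0.144%. In anagen 46 of the 50 genes were tested and 0 were called by edgeR, and the 2 of smallest p were Cadm4 (-2.27 ± 0.54, adjusted p = 0.221), of the family of Cadm1, and Pvrl4 (0.79, adjusted p = 0.245). Cadm4 was at 3.40, 6.81 and 5.43 CPM in anagen WT and 0.695 (0.6945 before rounding) and 1.62 CPM in anagen KO. DESeq2 called both (adjusted p = 0.00161 and 0.0416), and edgeR called Cadm4 with title days as blocks (adjusted p = 0.0406) and without the filter (adjusted p = 0.00760). With sex as a covariate Cadm4 was at -1.64 (adjusted p = 0.9997). In early telogen 42 were tested, and Ctnnd2 rose in KO (1.68 ± 0.30, adjusted p = 0.0236) while Zyx, which encodes the actin-associated zyxin, fell by 1.35 ± 0.26 (adjusted p = 0.0326). Ctnnd2 was at 12.4, 14.0, 12.03 and 12.8 CPM in KO and 4.29, 2.69 and 3.75 CPM in WT, without overlap. Zyx was at 413, 236, 423 and 278 CPM in KO and 900 (900.2 before rounding), 729 and 707 CPM in WT, also without overlap. Between these groups 13.1% of all genes did not overlap. In the 7 fits with 1 library left out, adjusted p reached 0.125 for Ctnnd2 and 0.123 for Zyx, and the replicate block gave 0.277 and 0.107. Ctnnd2 lost its call without KO replicate 1 or 5 or WT replicate 3 or 4. Zyx lost its call without KO replicate 1 or 5 or any WT replicate. Counts of Ctnnd2 were low, 23 to 48 in the WT libraries and 34 to 158 in KO. In the difference between the stages 45 were tested and 1 was called, Ctnnd2 (2.71 ± 0.44, adjusted p = 0.0229), a call kept in 2 of the 12 fits with a library left out. The list's medians were -0.23 in anagen, against 0.02 over all genes, and -0.25 in early telogen, against 0.03.

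Of 5 repressors of Cdh1 transcription (Snai1, Snai2, Zeb1, Zeb2 and Twist1), all were tested in each comparison, and 1 was called in 1 comparison. Zeb1 rose between the KO stages (3.04 ± 0.62, adjusted p = 0.00654), from 0.563 ± 0.0322 CPM (SD, n = 2) to 4.64 ± 1.09 CPM (n = 4), between the same groups in which the fibroblast and endothelial markers had positive values, whose part was not tested. Snai2, the repressor with the most counts, was at 40.1 ± 3.02 CPM in anagen WT (n = 3), 38.9 ± 8.71 in anagen KO, 47.3 ± 9.41 in early telogen WT (n = 3) and 69.4 ± 18.4 in early telogen KO, and was not called. Summed over the 5 genes, levels were 67.1 to 112 CPM in early telogen KO and 39.0 to 62.8 CPM in early telogen WT. The Cdh1 libraries of these groups overlapped.

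Genes whose pattern over the 12 libraries was most like that of the 3 cadherins were found by the root mean square difference of gene-centred log2 CPM, among 13185 other genes. For Cdh1 these were Dip2b (0.117), Pcnx (0.120) and Ago2 (0.133), where Cdh1 itself varied about its mean by 0.502. For Cdh3 they were Kirrel (0.206), Dtnb (0.249) and Gucd1 (0.257), beside 0.612 for Cdh3 itself. Kirrel had 113 ± 44.7 CPM in anagen WT, 178 ± 42.3 in anagen KO, 62.9 ± 6.78 in early telogen WT and 61.8 ± 15.8 in early telogen KO. For Cdh13 they were Serpinb10 (0.308), Tmtc1 (0.409) and Pdzrn4 (0.434), beside 1.74 for Cdh13. Serpinb10 had 27.4 ± 10.7 CPM in anagen WT, 7.72 ± 0.189 in anagen KO, 140 ± 8.01 in early telogen WT and 129 ± 31.0 in early telogen KO, the order of groups shown by Cdh13. These distances are descriptions over libraries that share stage, table and depth.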

How the data were processed

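RNA-seq of sorted cells was deposited as 1 table of raw read counts per gene for each stage. Per the submitters' processing notes, the authors used TopHat2, HTSeq and the mm10 build, and their versions, options and annotation are not given in the sources used here. The anagen table held 38803 genes and that of early telogen held 37958, after leaving out 5 tally lines and 3 broken lines. Another 27 names turned into dates were kept in the totals only. The 872 names of the anagen table alone (3.14% to 3.41% of its counts) stayed out of comparisons between tables.

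Counts were tested in edgeR 4.0.16 (R 4.3.3) by robust quasi-likelihood F-tests after TMM scaling and filterByExpr (a count of at least 10, a total of at least 15), and p-values were adjusted by Benjamini-Hochberg over all genes tested. Each comparison used only its own groups, and the difference between stages used all 12 libraries. The procedure was tested on simulated data. DESeq2 1.42.0, other scalings, no filter, sex, replicate and day blocks and left-out libraries were alternatives. Likeness used log2 CPM with prior count 2. Exon lengths and positions came from GENCODE vM21 (GRCm38).

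Named genes were the 8 members and, of the adherens junction list, those that passed or else the 2 of smallest p. Members and lists were chosen with earlier results of these data known. Replicate numbers did not pair the early telogen libraries: same-numbered libraries' deviations from group means had correlations of 0.0720 and 0.0335. In anagen, libraries of the same title day had correlations of 0.437 (day 29) and 0.377 (day 31). With 2 KO libraries their deviations mirror each other, and the labels of 1 day-31 library conflict, so the day block stayed an alternative. No 2 libraries of a group were copies. Counting intervals cover counting error only.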

Additional observations from a re-analysis of the deposited data

Results flagged for a closer look

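Single libraries stood apart in early telogen KO, the only group of 4 or more libraries and so the only one in which the lowest and highest values were tested by Dixon's ratio. Chance exceeds that ratio's limit in about 1 of 20 groups. Cdh3 was at 76.6 CPM in replicate 5 against 128 to 135 CPM in the other 3 KO libraries. Among the named genes of the adherens junction list, Cadm4 was at 2.12 CPM (21 counts) in replicate 3, the lowest of the group. Ptpn1 at 106 CPM and Ptprf at 765 CPM were the highest, both in replicate 2. The KO effect on Ctnnd2 differed between the stages by 2.71 ± 0.44 on the log2 scale (edgeR, contrast of 4 groups, adjusted p = 0.0229), with 2.86 ± 0.684 CPM in KO and 5.59 ± 0.785 CPM in WT in anagen and 12.8 ± 0.869 CPM in KO and 3.58 ± 0.813 CPM in WT in early telogen. With 1 of the 12 libraries left out at a time, this call held in 2 of 12 fits (without anagen WT replicate 1 and without early telogen KO replicate 2), and the value ran from 2.47 to 2.99, with the highest adjusted p (0.210) without anagen KO replicate 2.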

How the results depend on the processing

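Of the fold changes of the 8 genes under all alternatives, 495 kept their side of the threshold, 20 lost a call, 21 gained one and 0 reversed a call. The 495 include values that changed sign without being called. Cdh1 in anagen KO against WT, for example, ran from -0.94 to 0.05 with 1 library left out. For anagen KO against WT, genes called went from 0 to 306 without the filter on low counts, 506 with DESeq2, 1 with sex as a covariate, 154 with all 12 libraries and 253 with a day block, and from 0 to 95 with 1 library left out. Members called there went from 0 to 1, 2, 2 and 2 without the filter, with DESeq2, all 12 libraries and the day block, and from 0 to 2 with 1 library left out. For early telogen KO against WT, the 115 genes called became 338 without the filter, 423 with DESeq2, 39 with all 12 libraries, 47 without KO replicate 2 and WT replicate 3 together (chosen after seeing the data) and 19 (without WT replicate 3) to 131 with 1 library left out. Members called became 1 without the filter and 1 with DESeq2. With the replicate block 11 genes and 0 members were called, Ctnnd2 and Zyx lost their calls, and no other call on a named gene changed. Between the WT stages, 2312 to 4320 genes were called over all alternatives, 2312 to 3329 of them with 1 library left out, with 2 to 5 members, and 3 members with library totals alone. Between the KO stages, genes called were 1382 to 3640 and members 3 to 4 with 1 library left out. For the difference between stages, genes called were 409 without the filter, 151 with DESeq2, 6 with sex, 6 without both libraries of conflicting age labels, 39 with library totals alone and 0 to 55 with 1 library left out, and members called were 2, 2 and 0 to 2 without the filter, with DESeq2 and with 1 library left out. Library totals alone, added after seeing the data, changed the split of higher and lower calls to 95 and 46 from 60 and 55 in early telogen, and to 1293 and 2450 from 1724 and 2024 between the WT stages. The causes of these shifts were not tested. The depth of early telogen KO replicate 5 limits the precision of its Cdh3 value.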
